A study of Mus musculus with 23 samples.

Results

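EGR and KLF zinc finger factors are DNA-binding transcription factors, and 7 of them were read here: Egr1, Egr2, Klf2, Klf3, Klf4, Klf9 and Klf10. All probe sets whose platform annotation gives 1 of these symbols alone were taken, which left 12 of the 12422 tested probe sets and 7 of 8251 genes with a symbol. The measurements come from 23 Affymetrix arrays of primary mouse embryonic fibroblasts, connective tissue cells taken at stage e14.5 and labelled C57/BLACK6, ATF1 -/+ in all groups. Cultures were starved for 48 hours in 1% dialysed fetal serum, then kept for 2 hours in either 1% serum (starved) or 10% serum (treated), always with 200 µM 4-thiouridine, a uridine analogue that cells build into new RNA, and with tritiated cytidine. Each serum condition was read as 3 kinds of RNA. Newly transcribed RNA was the thiol-carrying RNA caught on an organomercurial matrix from 100 µg of RNA (4 starved and 4 treated arrays). Total RNA had 4 and 4 arrays, and amplified total RNA had 3 starved and 4 treated arrays. The design asks how synthesis and turnover of RNA each contribute to the early serum response. The titles call the arrays biological replicates, but no label says whether a replicate was a separate embryo or a pool.

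EGR factors bind GC-rich sites through their zinc fingers and are textbook immediate early genes: growth factors switch them on through ERK, the ternary complex factors and serum response factor (SRF), and their NAB cofactors repress them in turn. KLF factors bind GC-rich and CACCC-type sites through a similar zinc finger domain at their C terminus. Some mainly activate, such as Klf2 and Klf4, and others mainly repress: Klf3 through the corepressor CtBP, Klf9 and Klf10 through Sin3. In fibroblasts, Klf4 is known for restraining the cell cycle and Klf10 as an early gene of TGF-beta signalling.

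The sequences before the start sites of Egr2, Klf2 and Klf4 are shown because these genes hold differences described below. RefSeq promoter windows of build GRCm38.p6 held an entry for 5 of the 6 genes looked up (Egr2, Klf2, Klf3, Klf4 and Klf9). Capitals mark matches, on either strand, to motifs chosen after the sequences had been read. These were the CArG box, which SRF binds, the MEF2 box, the CRE half-site TGACG, the ETS site CCGGAA, the GC box GGGCGG and the EGR site GCGNGGGCG. EGR sites can overlap GC boxes, and do so here. The first Egr2 stretch lies at chr10:67537494-67537523 and the second at chr10:67537791-67537820, each on the + strand before its own annotated start. The Klf2 stretch is chr8:72318812-72319011 on the + strand, and that of Klf4 is chr4:55532526-55532725 on the - strand. All read 5′ to 3′ in the direction of the gene.
Egr2, CArG box and ETS site: CCTTTTTTGGaaagtctcggagaaCCGGAA
Egr2, CArG box and CRE half-site: ctcagtCCATATATGGgcagcgaCGTCAcg
Klf2, CRE half-site, GC boxes, EGR site and MEF2 box: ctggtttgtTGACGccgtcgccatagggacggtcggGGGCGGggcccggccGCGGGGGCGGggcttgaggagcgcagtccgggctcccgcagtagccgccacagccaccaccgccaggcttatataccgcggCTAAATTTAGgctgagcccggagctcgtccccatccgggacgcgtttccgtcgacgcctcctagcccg
Klf4, CRE half-site, GC boxes and EGR sites: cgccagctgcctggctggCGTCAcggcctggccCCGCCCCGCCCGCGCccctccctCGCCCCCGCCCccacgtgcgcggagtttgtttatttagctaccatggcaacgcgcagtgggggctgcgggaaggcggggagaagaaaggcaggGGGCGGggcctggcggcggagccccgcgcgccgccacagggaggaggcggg

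Among 32817 distinct windows of the table, 1.47% held a CArG box in the 250 bases before the start. Egr2 had a CArG match before 4 of its 5 annotated starts, 3 of which overlap and share the same match. Klf2, Klf3, Klf4 and Klf9 had no CArG match in these bases. Klf2 alone among these genes had a MEF2 box, which 0.509% of windows hold. GC boxes, which 32.7% of windows hold, stood before Klf2, Klf3, Klf4 and 2 of the 5 Egr2 starts. EGR sites, which 4.7% hold, stood before Klf2, Klf3 and Klf4. CRE half-sites stood before Egr2, Klf2, Klf4 and Klf9, against 17.7% of windows, and ETS sites before 1 start of Egr2, against 12% of windows. CACCC boxes, the letters CACCC, stood before Egr2, Klf2, Klf3 and Klf9, against 52% of windows. A match describes these letters only and is no evidence of binding.

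**Figure D1:**
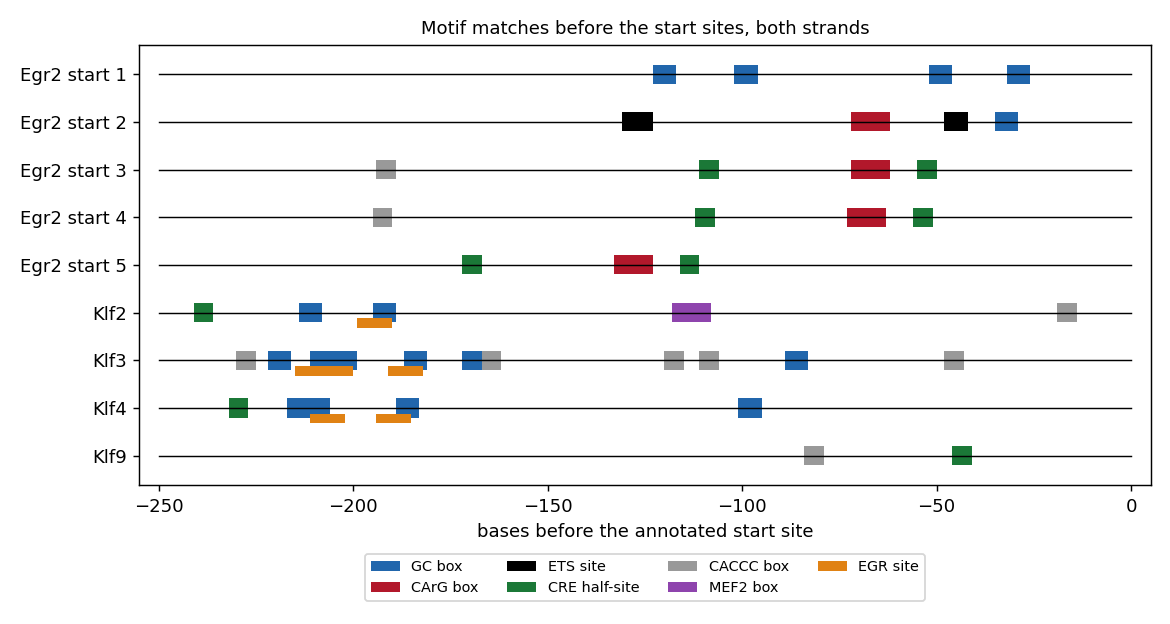
Positions of motif matches on either strand in the 250 bases before each annotated start site (x axis, bases before the start), with 1 line per start and 5 starts for Egr2. CArG boxes are seen at 4 of the 5 Egr2 starts and the MEF2 box at Klf2.

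Signals below are quantile-normalised intensities, linear and without a unit. Differences are on the scale of log2(signal + 16), so that changes of dim probe sets come out too small, and are given ± the standard error of the limma fit. A probe set was called when its Benjamini-Hochberg adjusted p over 12422 probe sets was below 0.05. Where same-numbered arrays deviated together (newly transcribed and total RNA across serum, and newly transcribed against amplified RNA after serum), a second fit took replicate numbers as blocks. Different probe sets have different brightness per molecule, so levels are compared within a probe set only. Because these are bulk cultures, fewer cells of a type and less RNA per cell cannot be told apart.

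The 3 kinds of RNA differed in quality measures, and whole profiles split the arrays. The 3′ probe set of the GAPDH control stood above the 5′ one by 2.16 ± 0.65 (log2, SD, n = 8) in newly transcribed RNA, 1.55 ± 0.60 (n = 7) in amplified and -0.20 ± 0.11 (n = 8) in total RNA. The actin control gave 2.37 ± 0.55, 2.27 ± 0.44 and 0.35 ± 0.17 in the same order, nearly alike in newly transcribed and amplified RNA. Clustering without the members set 8 arrays apart, called cluster 1: those numbered 1 and 4 of newly transcribed RNA (starved and treated) and of amplified treated RNA, with numbers 1 and 3 of amplified starved RNA. The rest, with all total RNA arrays, form cluster 2. Array medians as deposited ran from 7.3 to 75.2. Fibroblast markers fitted the label, with 12 of 14 (newly transcribed) or 13 of 14 (total and amplified) above the median probe set.

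Among marker lists of other cell types, macrophage genes were detected most often. Of 11 measured, 8 were above the median probe set in 5 groups and 7 in starved total RNA, led by Cd14 and Lyz2, while Aif1 and Itgam were near 0 in newly transcribed RNA. Their summed signal ran from 1084 to 4869 in starved and from 2337 to 7381 in treated newly transcribed RNA. It ran from 3593 to 7624 and 3662 to 8120 in total RNA, and from 2268 to 8506 and 2467 to 9653 in amplified RNA. These ranges overlap between serum conditions in each kind of RNA, but most single markers had a positive serum difference, as Egr2 and Klf10 did below. This held for 11 of 11 in total, 10 of 11 in newly transcribed and 10 of 11 in amplified RNA, with median log2 differences of 0.32, 0.28 and 0.48, and limma called 0 of them with or without the block. The mean level of Csf1r went from 364 to 507 in total and from 326 to 491 in newly transcribed RNA, and that of Cd14 from 725 to 954 and from 928 to 1676. The part of macrophage RNA in the results below was not tested. At most 3 of 9 endothelial, 1 of 10 epithelial, 1 of 7 muscle and 2 of 5 neural markers were above the median probe set in any group. Among the endothelial genes, Cdh5 and Tie1 were near 0, while group means ran from 187 to 456 for Eng and from 28.8 to 120.2 for Flt1.

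Egr2, an early growth response factor that acts in myelinating glia and immune cells and is induced by serum in fibroblasts, rose with serum in total RNA. Its signals (102661_at) in starved total RNA were 192, 122, 85.1 and 132 on arrays 1 to 4, and in treated total RNA 755, 580.4, 561 and 451. Every treated array stood above every starved array. The difference was 2.04 ± 0.23, a 4.12-fold rise with a 95% interval of 2.84 to 5.98 (adjusted p = 0.024), and the pairs gave 1.89, 2.11, 2.51 and 1.66. With the block it was 2.04 ± 0.15 (adjusted p = 0.017, and 0.060 to 0.14 without any 1 pair). The call without a block was close to the threshold: leaving out 1 array at a time kept it in 2 of 8 cases, without starved or treated array 1. Without starved array 2, 3 or 4 the adjusted p was 0.13, 0.079 and 0.086, and without treated array 2, 3 or 4 it was 0.12, 0.080 and 0.085, while the difference stayed between 1.87 and 2.22.

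In newly transcribed RNA, Egr2 was called with the replicate block. Starved arrays 1 to 4 had 1224, 439.6, 511 and 1079, and treated arrays 3287, 1096, 943 and 3215. The groups overlapped, with arrays 1 and 4 the bright ones in both conditions, and every treated array exceeded the starved array of its number. The pairs differed by 1.41, 1.29, 0.86 and 1.56. With the replicate block the rise was 1.28 ± 0.14, or 2.43-fold with a 95% interval of 1.91 to 3.10 (adjusted p = 0.026). Without the block it was not called (1.28 ± 0.54, adjusted p = 0.75). Leaving out any 1 of the 4 pairs took the blocked adjusted p to between 0.062 and 0.17, with differences of 1.19 to 1.42.

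In amplified total RNA the Egr2 signal was 586, 87.8 and 219.7 on starved arrays 1 to 3, and 1259, 216, 345 and 1079 on treated arrays 1 to 4. The spread within each group was wide, the groups overlapped, and the difference of 1.25 ± 0.81 was not called (adjusted p = 1.00). Over the 6 groups, mean levels of Egr2 ran from newly transcribed treated over newly transcribed starved, total treated, amplified treated and amplified starved down to total starved, and each group overlapped its neighbour in that order. Total treated and amplified treated differed by 0.02 on the log2 scale.

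Egr1, the archetype of the family and a first-wave serum gene, did not pass the test in any kind of RNA. Its bright probe set (98579_at) had 1532, 267, 835 and 712 in starved and 2672, 597, 752 and 2576 in treated newly transcribed RNA. In total RNA it had 319, 69.8, 108 and 339 starved and 503, 262, 457 and 198 treated. The groups overlapped in both, and 1 pair of each ran the other way: pair 3 in newly transcribed RNA (-0.15) and pair 4 in total RNA (-0.73). Differences were 0.90 ± 0.30 with the block in newly transcribed RNA (adjusted p = 0.16), 0.88 ± 0.44 with the block in total RNA (adjusted p = 0.54) and 0.68 ± 0.53 in amplified RNA. The other Egr1 probe set (161802_i_at) was dim, between 1.7 and 21.5 on all arrays, too dim to read a change from.

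**Figure D2:**
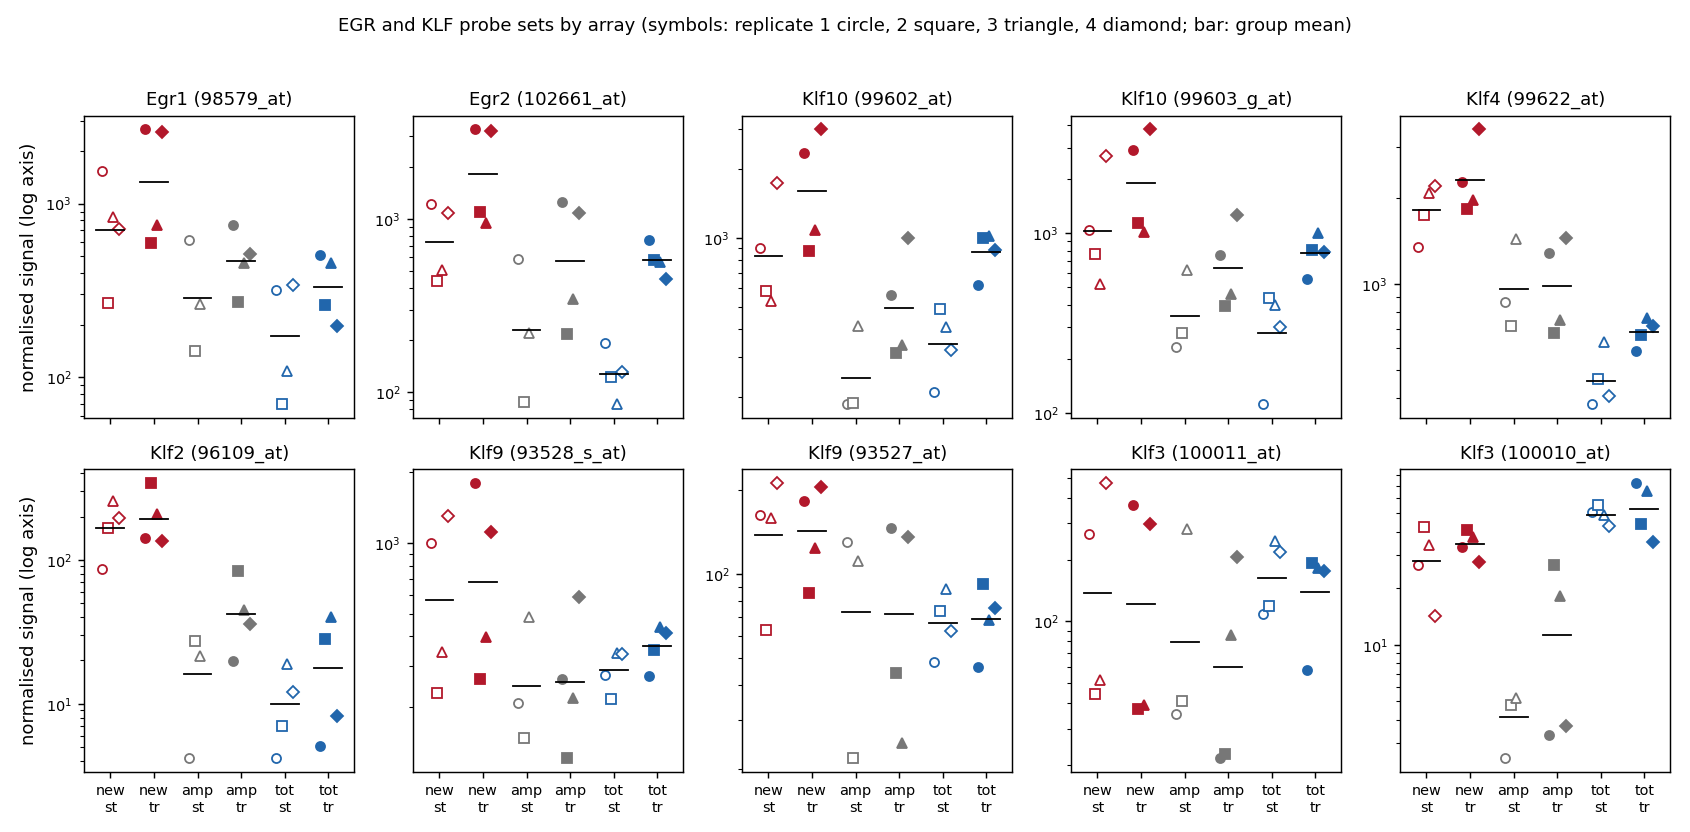
Normalised signal (log y axis) of 10 member probe sets on each of 23 arrays, with 1 panel per probe set and 6 groups on the x axis (new, newly transcribed; amp, amplified total; tot, total RNA; st, starved, open symbols; tr, treated, filled symbols). Symbols give the replicate number and bars the group mean taken on the log2(signal + 16) scale. Egr2 and both Klf10 probe sets separate starved from treated in total RNA, and Klf2 separates newly transcribed RNA from the other groups.

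Klf10, also called TIEG1, a repressor first found as an early gene of TGF-beta, rose beside Egr2. Probe set 99602_at read 212, 486, 406 and 322 in starved and 620.0, 998, 1014 and 879.5 in treated total RNA, with no overlap between the groups. The pairs differed by 1.48, 1.01, 1.29 and 1.40. The rise of 1.30 ± 0.11, 2.45-fold with a 95% interval of 2.03 to 2.96, was called with the block (adjusted p = 0.020) but not without it (± 0.26, adjusted p = 0.24). Leaving out 1 pair at a time, the blocked call held without pair 2 (adjusted p = 0.048), and the adjusted p ran up to 0.16 without the other pairs.

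In newly transcribed RNA, Klf10 99602_at read 898, 585, 529 and 1739 starved and 2355, 875, 1082 and 2981 treated. The groups overlapped but all 4 pairs were higher after serum, by 1.38, 0.57, 1.01 and 0.77. With the block the rise of 0.93 ± 0.16 (1.91-fold, 95% interval 1.47 to 2.48) was just past the threshold (adjusted p = 0.048), and leaving out any 1 pair took it to between 0.074 and 0.23. The other Klf10 probe set, 99603_g_at, correlated with it at r = 0.96 over the 23 arrays. It gave 0.87 ± 0.19 in newly transcribed RNA (adjusted p = 0.073) and 1.42 ± 0.21 in total RNA (adjusted p = 0.080), both with the block and neither called. Its total RNA groups did not overlap either, with 111 to 436 starved and 559 to 1006 treated. In amplified RNA the values were 0.97 ± 0.47 and 0.87 ± 0.50, and treated array 3 read below starved array 3 for both probe sets.

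**Figure D3:**
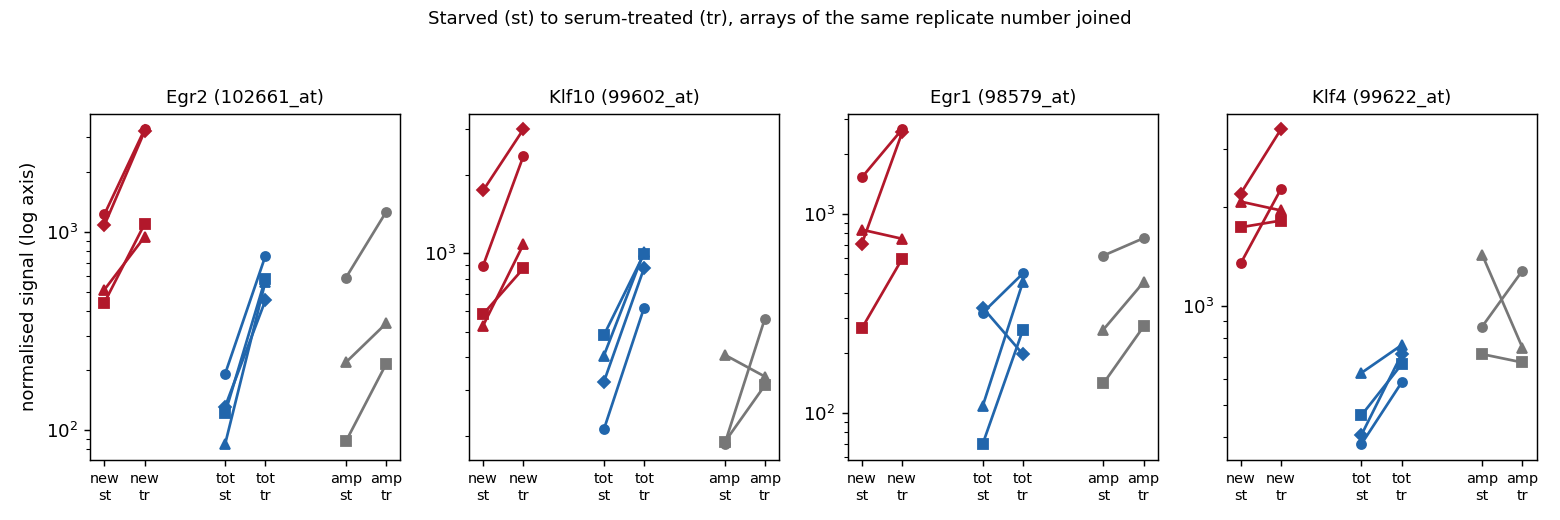
Normalised signal (log y axis) of Egr2, Klf10, Egr1 and Klf4 in starved (st) and treated (tr) arrays, with lines joining arrays of the same replicate number in newly transcribed (new), total (tot) and amplified total RNA (amp). All Egr2 and Klf10 lines rise in newly transcribed and total RNA, and 1 Egr1 line falls in each of these.

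Klf4, which restrains proliferation in fibroblasts and epithelia, did not pass the test for serum. In total RNA probe set 99622_at read 381, 466, 627 and 406 starved and 587, 666, 762 and 715 treated. All 4 pairs were higher after serum, but treated array 1 stood below starved array 3. The difference was 0.54 ± 0.11 with the block (adjusted p = 0.19; unadjusted p = 0.0031). In newly transcribed RNA it was 0.34 ± 0.17 with the block (adjusted p = 0.32), and the pairs gave 0.74, 0.07, -0.09 and 0.65. In amplified RNA it was 0.03 ± 0.37. The second Klf4 probe set (161185_i_at) never exceeded 3.7 and can show no change.

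Klf2, a flow-responsive factor of endothelium that also keeps T cells quiescent, had little signal in total RNA. Probe set 96109_at read 4.2, 7.0, 19.0 and 12.1 in starved and 5.1, 28.4, 40.2 and 8.2 in treated total RNA. The serum difference there was 0.37 ± 0.21 with the block (adjusted p = 0.59), and in newly transcribed RNA 0.21 ± 0.26 (adjusted p = 0.71). In amplified RNA, treated arrays 1 to 3 stood above the starved arrays of their number, by 0.83, 1.20 and 0.70. Numbers were not taken as pairs there, and the difference of 0.86 ± 0.41 was not called.

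Klf9, a repressor known as a target of glucocorticoid and thyroid hormone, and Klf3, a CtBP-dependent repressor, did not pass the test for serum in any kind of RNA. For Klf9 93528_s_at the blocked differences were 0.25 ± 0.18 (newly transcribed, adjusted p = 0.49) and 0.32 ± 0.13 (total RNA, adjusted p = 0.45), beside 0.05 ± 0.57 in amplified RNA. Klf9 93527_at had 0.04 ± 0.14, 0.03 ± 0.13 and -0.02 ± 0.68. With the block, the 95% interval of this probe set ran from -0.31 to 0.38 in newly transcribed and from -0.28 to 0.34 in total RNA. Klf3 100011_at had -0.16 ± 0.19, -0.20 ± 0.23 and -0.33 ± 0.86, and Klf3 100010_at 0.20 ± 0.13, 0.07 ± 0.15 and 0.44 ± 0.32, in the same order.

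Counted over the 12 probe sets, serum changed 1 in total RNA without the block (Egr2, higher), where limma called 0.121% of all probe sets. With the block it changed 2 (Egr2 and Klf10 99602_at, both higher), against 0.483% of all (0.459% higher). Groups did not overlap for 3 of the 12 in total RNA (Egr2 and both Klf10 probe sets), against 2.95% of all. In newly transcribed RNA limma called 0 of the 12 and 0% of all probe sets without the block, while 800 probe sets passed 0.05 before adjustment. With the block it called the same 2 as in total RNA, against 1.74% of all probe sets (0.91% higher). No member had groups apart there, against 3.82% of all. In amplified RNA limma called 0 members and 0% of all, with 175 probe sets past 0.05 before adjustment. Groups overlapped for each of the 12 there, while those of 2.41% of all probe sets did not. The 12 had median differences of 0.23 (newly transcribed), 0.35 (total) and 0.24 (amplified RNA), beside 0.01, -0.01 and -0.01 over all probe sets.

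**Figure D4:**
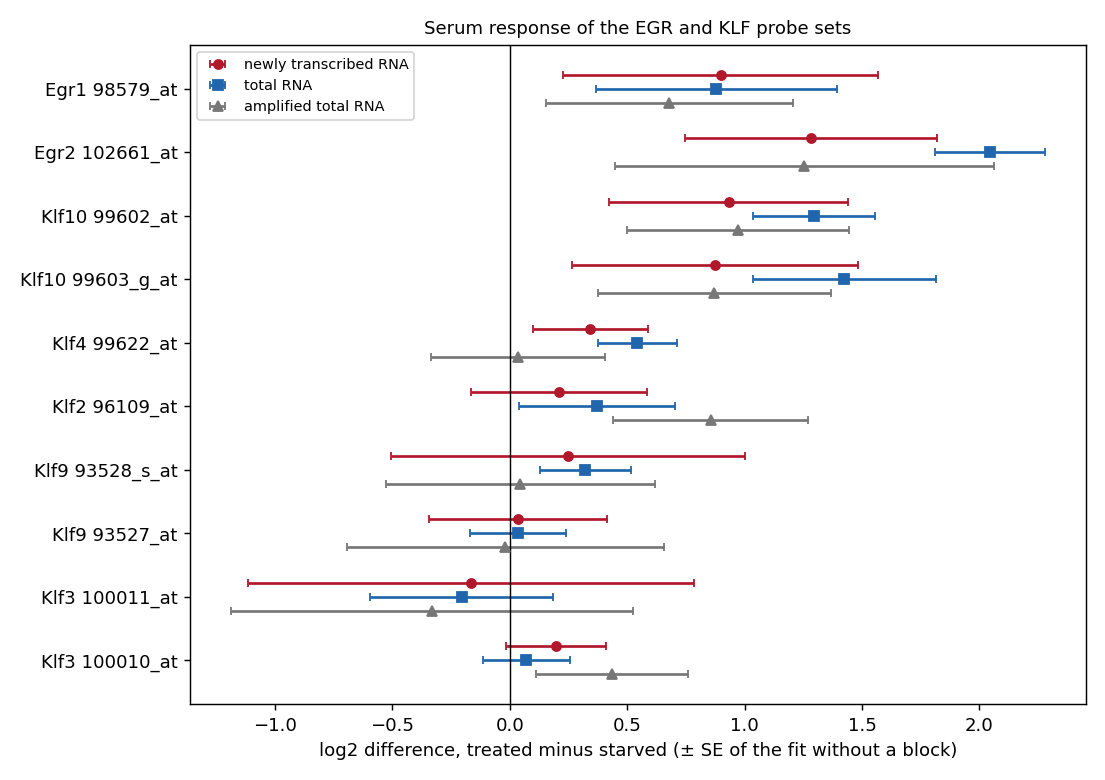
Serum difference (x axis, log2 treated minus starved) of 10 member probe sets in newly transcribed, total and amplified total RNA, each point with the standard error of the fit without a block. Egr2 in total RNA stands highest at 2.04, and the Klf9 points lie between -0.02 and 0.32.

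No difference between the members' serum responses in different kinds of RNA was called. For newly transcribed against total RNA limma called 0 of the 12 and 0% of all probe sets in both fits, with 299 past 0.05 before adjustment without the block. For Egr2 the response in newly transcribed RNA minus that in total RNA was -0.76 ± 0.22 with the block (95% interval -1.25 to -0.27, adjusted p = 0.34) and ± 0.61 without it. For Klf10 99602_at this difference was -0.36 ± 0.20 with the block, with an interval from -0.81 to 0.08. For Egr1 it was 0.02 ± 0.58 with the block, with an interval from -1.28 to 1.32. For newly transcribed against amplified RNA limma also called 0 of the 12 and 0% of all, with 201 past 0.05 before adjustment. Egr2 had 0.03 ± 1.00 there, with an interval from -2.14 to 2.19.

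Newly transcribed RNA was next set against amplified total RNA within each serum condition, and Klf2 was the member called in both. These comparisons share their arrays with the serum comparisons. Normalisation brought all arrays to the same distribution, so signals are relative within each kind of RNA and give no amount of RNA per cell. In newly transcribed RNA Klf2 read 86.2, 167, 258 and 195 starved and 142, 342, 210 and 136 treated. In amplified total RNA it read 4.2, 27.3 and 21.6 starved and 19.8, 83.8, 45.0 and 35.7 treated. Every newly transcribed array exceeded every amplified array, and total RNA arrays also lay below all of them. The difference was 2.50 ± 0.40 in starved cells (adjusted p = 0.032) and 1.86 ± 0.38 in treated cells (adjusted p = 0.039). The amplified signals are dim, so the size of this difference follows the pseudocount and no fold is given.

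The summed signal of 9 endothelial markers, a cell type known for Klf2, ran from 323 to 517 in newly transcribed and 366 to 1091 in amplified starved RNA, and from 490.2 to 739 and 282 to 1326 in treated RNA, with overlap in both. Of the 9, 5 had a positive difference in each condition, with medians of 0.08 starved and 0.14 treated. Limma called 0 without the block, against 3.17% of all probe sets in starved and 4.05% in treated cells. With the block it called 2 higher in treated cells, against 11.1% of all probe sets called higher. Flt1 had mean levels of 57.8 in newly transcribed against 28.8 in amplified starved RNA and 120.2 against 42.3 in treated RNA, and Kdr 41.8 against 25.2 and 48.0 against 23.2. These 2 lay on the same side as Klf2, while Eng ran the other way, with 187 against 372 and 245 against 456. The part of endothelial RNA in the Klf2 difference was not tested.

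These Klf2 calls were close to the threshold. Without any 1 of the 7 starved arrays the adjusted p lay between 0.056 and 0.11. Among treated arrays, leaving out amplified array 2 kept the call (adjusted p = 0.047), and without any other array the adjusted p lay between 0.062 and 0.11. The treated difference, with the block, was 1.86 ± 0.15 (adjusted p = 0.0031) and was called without any 1 of the 4 pairs. Starved arrays of the 2 kinds did not pair by number, and with a block there Klf2 had adjusted p = 0.067. With a pseudocount of 1 in place of 16 the difference was 3.47 starved and 2.22 treated, and neither was called (adjusted p = 0.071 and 0.058). With 64 it was 1.52 starved (adjusted p = 0.045) and 1.27 treated, the latter not called (adjusted p = 0.054). With values as deposited neither was called (adjusted p = 0.37 and 0.61). The blocked call in treated cells held with 1 (adjusted p = 0.011) and 64 (adjusted p = 0.0070), but not with values as deposited (adjusted p = 0.14).

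The other member probe sets were on the higher side of amplified RNA too, except the near-zero Klf4 161185_i_at in starved cells. This is no comparison with unamplified total RNA, where both Klf3 probe sets had higher means than in newly transcribed RNA. In starved cells limma called 1 of the 12 (Klf2), against 3.17% of all probe sets (1.17% higher). Groups did not overlap for 3, Klf2, Klf3 100010_at and Klf10 99602_at, against 16.6% of all. In treated cells it called 1 of 12 without the block, against 4.05% of all (1.22% higher), and 8 of 12 with it, all higher, against 21.1% of all (11.1% higher). Groups were apart for 3, Klf2, Klf3 100010_at and Klf4, against 11.1% of all. The median difference of the 12 was 1.14 in starved and 1.29 in treated cells, beside -0.01 and 0.02 over all probe sets.

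Of the 8 called in treated cells with the block, the widest differences after Klf2 were Klf10 99602_at with 1.67 ± 0.16 (adjusted p = 0.0036), Egr2 with 1.65 ± 0.19 (adjusted p = 0.0051) and Klf10 99603_g_at with 1.54 ± 0.17. Egr1 followed with 1.47 ± 0.28 (adjusted p = 0.017), Klf9 93528_s_at with 1.36 ± 0.34 (adjusted p = 0.038), Klf4 with 1.21 ± 0.16 (adjusted p = 0.0065) and Klf3 100010_at with 0.89 ± 0.20 (adjusted p = 0.027). Leaving out any 1 pair kept the calls of Klf2, Egr2, Klf4 and both Klf10 probe sets. The call of Egr1 was lost without pair 2 or 4, where the adjusted p ran up to 0.064. That of Klf3 100010_at was kept without pair 1 only (up to 0.10 otherwise), and so was that of Klf9 93528_s_at (up to 0.11 otherwise). Klf9 93527_at (0.84 ± 0.26, adjusted p = 0.073) and Klf3 100011_at (0.86 ± 0.64) were not called.

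**Figure D5:**
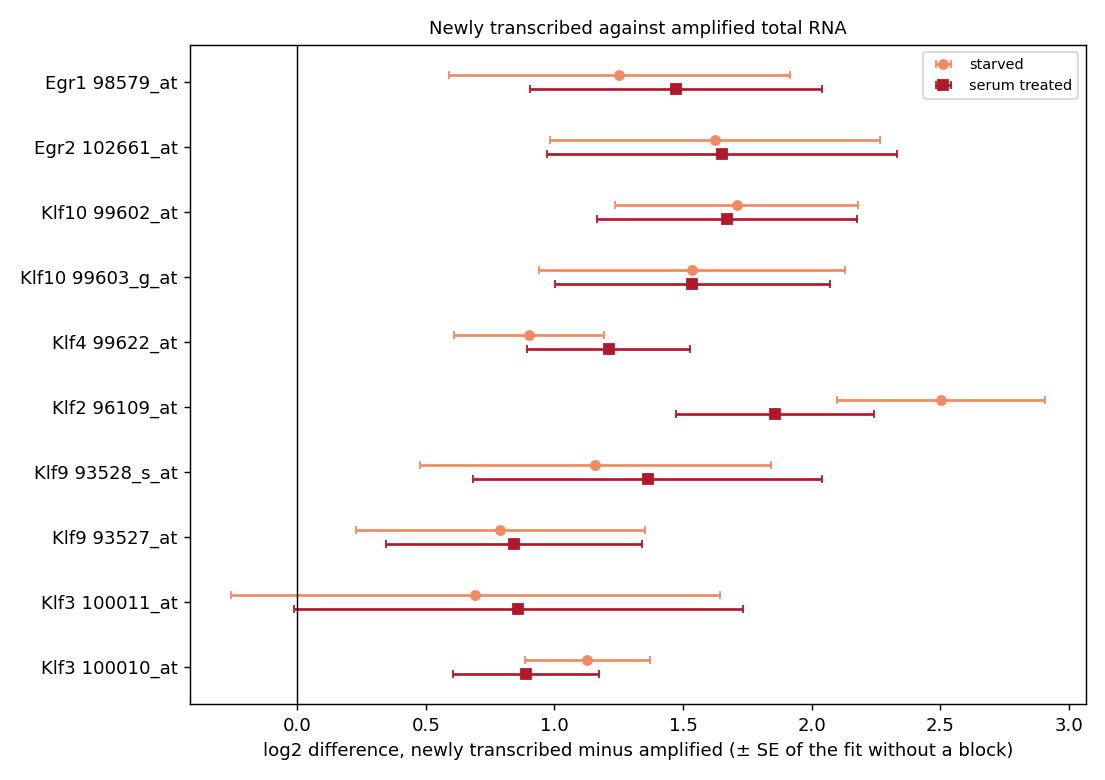
Difference between newly transcribed and amplified total RNA (x axis, log2) of 10 member probe sets in starved and serum-treated cells, each point with the standard error of the fit without a block. All points lie above 0, with Klf2 at 2.50 in starved cells the farthest.

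Klf4, Klf9 and Klf3 differed in how levels were ordered over the groups. Klf4 signals in newly transcribed RNA were 1351, 1739, 2082 and 2202 starved and 2273, 1823, 1957 and 3456 treated. Mean levels fell from newly transcribed over amplified to total RNA, treated above starved in each kind, and neighbours in this order overlapped. Klf9 93528_s_at ranged from 229 to 1805 in newly transcribed RNA and from 215 to 441 in total RNA. Its group order was newly transcribed, total, amplified, with overlaps throughout. Klf9 93527_at had amplified slightly above total RNA instead, also with overlaps. Its mean levels were 73.2 starved and 72.0 treated in amplified RNA, against 66.9 and 68.9 in total RNA.

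Between the arrays titled amplified total RNA and those titled total RNA, over both serum conditions, limma called 1 lower and 1 higher of the 12. This share is near the 18.8% of all probe sets (8.99% lower and 9.83% higher). Klf3 100010_at read 42.7 to 55.2 in starved and 35.0 to 72.5 in treated total RNA, against 2.5 to 5.2 and 3.3 to 26.5 in amplified RNA. Its fall of -1.51 ± 0.19 (adjusted p = 1.3e-04) held on leaving out any 1 of the 15 arrays. The other Klf3 probe set, 100011_at, had -0.98 ± 0.48 (adjusted p = 0.18). Klf4 stood 0.78 ± 0.20 higher (adjusted p = 0.016) and was called without any 1 of the 15 arrays. With the array cluster as a block, Klf4 had 0.31 (adjusted p = 0.30).

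Members differed in how far they followed the array clusters in newly transcribed RNA. Klf3 100011_at read 267 to 472 on the 4 cluster 1 arrays and 37.5 to 51.7 on the 4 others, a difference of 2.61. Klf9 93528_s_at read 1002 to 1805 against 229 to 398, a difference of 2.02. Neither overlapped between clusters, nor did Klf9 93527_at, with 0.80. The split was made without the members but from the same arrays, so probe sets that vary with the whole profile separate in it. The share of all probe sets that do so was not counted, so the lack of overlap is a description only. Differences for Egr1, Egr2 and Klf10 99602_at were 1.53, 1.46 and 1.29, with overlap, and that of Klf4 was 0.21. Klf2 ran the other way with -0.75, and so did the other Klf3 probe set, 100010_at, with -0.42. The dim Egr1 161802_i_at (-0.41) and Klf4 161185_i_at (-0.05) were also on that side. Mean GAPDH 3′ over 5′ differences were 2.56 in cluster 1 and 1.75 in cluster 2 of newly transcribed RNA, and the part of RNA quality in these differences was not tested. Serum differences of Egr2 and Klf10 99602_at were positive in each of the 4 newly transcribed pairs, 2 in each cluster.

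Members fell into like and unlike patterns over the 23 arrays, given as a description since arrays of a group share conditions and clusters. Egr1 and Egr2 had r = 0.89, and Egr2 had r = 0.80 with Klf10 99602_at. Klf2 and Klf4 had r = 0.80, and Klf3 100011_at and Klf9 93528_s_at r = 0.79. The 2 Klf3 probe sets had r = 0.11, and those of Klf9 0.75. Of 4869 brighter genes, Dusp6 was most like both Egr1 (r = 0.92) and Egr2 (r = 0.95). Next were Slc20a1 and Ipo7 for Egr1, and Frmd6 and Ifrd1 for Egr2. Klf2 was most like Gmppb (r = 0.94), Klf4 like Rhou (r = 0.95) and Notch1, Klf3 100011_at like Ro60 (r = 0.91), Klf9 93528_s_at like Cpeb2 (r = 0.92) and Klf10 99603_g_at like Il1r1 (r = 0.90).

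Relatives and partners of the members were read beside them. Of 23 other family genes listed, 11 were measured, and with the block 1 rose with serum in newly transcribed RNA, Klf5, a growth-promoting factor (1.07 ± 0.17, adjusted p = 0.042), and 0 in total RNA. Without the block 0 of the 11 were called in either. Over all genes, 89 of 8251 were higher and 85 lower in newly transcribed RNA with the block, and 48 higher and 3 lower in total RNA. Klf6, an early injury-response factor, had 0.04 ± 0.12 in newly transcribed and 0.50 ± 0.11 in total RNA, not called. Of 25 upstream factors and cofactors, such as the ternary complex factors, MEF2 proteins, NAB and CtBP, 19 were measured and 0 were called for serum in any kind of RNA. Nab2, the inducible corepressor of EGR factors, had -0.19 ± 0.11 in newly transcribed and -0.46 ± 0.12 in total RNA. Median serum differences were 0.04 and 0.10 for the family and -0.07 and -0.10 for upstream factors in newly transcribed and total RNA, beside -0.01 and -0.02 over all genes.

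Reported targets of EGR and KLF factors included genes called with the block. Of 18 listed, 16 were measured, and in newly transcribed RNA 4 were higher with the block, against 89 of all 8251 genes. The 4 were the hyaluronan receptor Cd44 (1.40 ± 0.11, adjusted p = 0.016), the inhibitory Smad7 (0.75 ± 0.11, adjusted p = 0.042), the growth factor chain Pdgfa (0.95 ± 0.16, adjusted p = 0.048) and tissue factor, F3 (0.87 ± 0.13, adjusted p = 0.042). In total RNA 1 was higher with the block, F3 with 1.40 ± 0.14 (adjusted p = 0.027), against 48 of 8251 genes. Without the block limma called 0 of the 16 in either kind of RNA. Vegfa had 2.02 ± 0.36 and 1.95 ± 0.31 and missed the threshold (adjusted p = 0.053 and 0.095). Median differences of the 16 were 0.55 and 0.31, beside -0.01 and -0.02 over all genes. The lists were drawn up with results of these data known, so their counts are a description.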

How the data were processed

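Each array's deposited values are linear signal intensities, 1 for each Affymetrix probe set (12488 probe sets, 23 arrays, values from 0 to 11017.1, 42 of them at 0). Per the labels' protocols, RNA was reverse transcribed, linearly amplified and biotin labelled by a T7-based method in all samples. Only the titles separate amplified from other total RNA. How the authors summarised and scaled the arrays is not given in the sources used here. Arrays were grouped by their titles, and no arrays held identical values. Because array medians spanned 1.97 on the log2 scale, above a limit of 0.5, arrays were quantile normalised and log2(value + 16) was taken. Before testing, 66 control probe sets were removed. Of the rest, 10833 had 1 symbol in the platform annotation, 396 several and 1193 none listed there.

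Two-sided tests were run with the lmFit and eBayes functions of limma 3.58.1 (R 4.3.3) on the arrays of the kinds compared, in 8 comparisons. They were checked on simulated data. The small number of arrays limits precision. The p-values set a difference against the spread between arrays of a group, less the part that goes with replicate number where it was a block. Named genes are all member probe sets, the called or defining members of 3 lists, and the brighter genes with the highest Pearson r to each member. Members, lists and most tests were chosen with earlier results of these data known.

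Replicate numbers were taken as pairs where, in every pair, the 2 arrays' departures from their group means correlated above 0.1. The correlations were 0.80, 0.80, 0.76 and 0.70 for newly transcribed RNA across serum, 0.70, 0.23, 0.47 and 0.57 for total RNA, and 0.56 to 0.73 for treated newly transcribed against amplified RNA. The pairing comes from the data, and only same-numbered arrays were correlated. In newly transcribed and treated amplified RNA the array clusters also follow the replicate number. For these arrays the check cannot tell pairing by number from the cluster split. Alternatives were no scaling, median scaling, pseudocounts of 1 and 64, a filter on dim probe sets, 1 fit of all arrays, blocks for replicate number and array cluster, and leaving out arrays. Promoter windows came from RefSeq (GRCm38.p6) and were searched with Python. No promoter sequence of Egr1 or Klf10 was used here.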

Additional observations from a re-analysis of the deposited data

Results flagged for a closer look

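In 4 of the 60 groups tested (12 probe sets in 5 groups of 4 arrays), 1 array stood far from the other 3 by Dixon's test. Chance flags about 1 in 20 such groups, so this count is near the chance rate. Klf3 100011_at in treated total RNA read 57.7 on array 1, below the 176 to 192 of the others. Egr1 161802_i_at in treated amplified RNA read 14.51 on array 4, above the 2.0 to 2.7 of the others. The remaining cases are in the near-zero Klf4 161185_i_at: array 2 in treated newly transcribed RNA (1.96 against 0.45 to 0.65) and array 2 in starved total RNA (0.574 against 0.23 to 0.28). No call in the report rests on these values.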

How the results depend on the processing

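Counts here are member probe sets called, of 12. For serum in newly transcribed RNA (0 without a block) the replicate block gave 2, the array cluster as a block 1 (Egr2, adjusted p = 0.030), the replicate block with median scaling 1 and with a pseudocount of 64, 1. The block called 0 with values as deposited, with a pseudocount of 1 and without any 1 pair. For serum in total RNA (1) it was 0 with values as deposited (Egr2 adjusted p = 0.090), with a pseudocount of 1 (0.051) and with all 23 arrays in 1 fit (0.97), and 0 to 1 on leaving out 1 array. The block gave 2, 0 to 1 on leaving out 1 pair, 0 with values as deposited or a pseudocount of 1, 3 with median scaling and 2 with a pseudocount of 64. For starved newly transcribed against amplified RNA (1) it was 0 with values as deposited, a pseudocount of 1 or the block, also without any 1 pair, 0 to 1 on leaving out 1 array, 3 with all arrays and 4 with the cluster block. After serum (1) it was 0 with values as deposited and with pseudocounts of 1 or 64, 4 with all arrays, 8 with the block, 9 with the cluster block and 0 to 1 on leaving out 1 array. The block gave 5 to 9 without 1 pair (6 without pair 3), 0 with values as deposited and 7 with median scaling or a pseudocount of 1 or 64. For amplified against total RNA (2) it was 1 with values as deposited and with dim probe sets left out, 4 with the cluster block, 2 to 3 on leaving out 1 array and 1 to 3 with the block on leaving out 1 pair. Combinations of the block with another setting were added after seeing the data; dropped and added calls had no cause tested, except that the filter leaves Klf3 100010_at untested. The serum response in amplified RNA and both differences of responses stayed at 0.

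With values as deposited the median difference of all probe sets was -0.18, 0.21 and 0.25 for serum in newly transcribed, total and amplified RNA, and 0.35 for starved newly transcribed against amplified RNA. Of 96 member values, 28 with an unadjusted p below 0.05 were followed singly and kept their direction throughout. Their selection by p on the same arrays favours this, so it is a description only. Of the other 68, 42 changed sign under some alternative and 4 were called under some.

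Limits: arrays number 3 or 4 a group, dim probe sets (Egr1 161802_i_at, Klf4 161185_i_at, Klf2 in total RNA) can show little, and several calls lie near the threshold. Replicate numbers pair amplified arrays across serum poorly (1 pair at -0.47), and the block there changed no call.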
